A study of Homo sapiens with 6 samples.

Results

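Wnt ligands and the proteins that load, release and inactivate them were followed in human forebrain neuron progenitor cells after knockdown of circRTN4(2,3), one of the circular RNAs that arise from RTN4. The set held 10 genes, picked by symbol out of the 59151 genes of the expression table: the ligand genes WNT8B, WNT7A, WNT7B, WNT5A, WNT5B, WNT3A and WNT2B, the secretion genes WLS and PORCN, and NOTUM. All 10 were in the table. WNT8B and WLS head the set because they were lower in the knockdown, so their differences from scramble are given here as a description, without a test, and support nothing further. The same holds for the other 8 genes in that comparison, since all were put together with these results known.

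The cells came from H9 human embryonic stem cells, an established line, and were harvested at day 26. Cells expressed circRTN4(2,3) shRNA1, circRTN4(2,3) shRNA2 or a scrambled hairpin, with 2 libraries in each of the 3 groups. The labels give the genotype of the hairpin groups as circRTN4(2,3) knockdown and that of the scramble group as WT. Ribosomal RNA was depleted from total RNA before library construction, so the values include RNA without a poly(A) tail. Replicates carry numbers in the labels, but if each stands for a culture of its own is not stated there. P-values here reflect no more than library-to-library spread, possibly technical. How the hairpins were delivered and whether cells were selected is not given in the sources used here. Levels are FPKM, that is, fragments corrected for the length of the gene and the size of the library.

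Wnt ligands are secreted lipid-modified glycoproteins that bind Frizzled receptors and LRP co-receptors on nearby cells. In the endoplasmic reticulum the acyltransferase PORCN attaches a palmitoleate to each ligand, and the membrane carrier WLS (Wntless, also GPR177) recognises that lipid and takes the ligand to the cell surface. The secreted carboxylesterase NOTUM removes the same lipid outside the cell and so inactivates the ligand. In the developing forebrain the cortical hem, a signalling centre at the dorsal midline next to the choroid plexus, is known as a Wnt source. In mouse embryos it is marked by Wnt2b, Wnt3a, Wnt5a and Wnt8b, while Wnt7a and Wnt7b are expressed more widely in the cortical neuroepithelium.

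The promoters of WNT8B and WLS are shown because these genes had similar profiles over the libraries (given below). Both were chosen as lower in the same comparison of these libraries, so their likeness was partly fixed by that choice. WNT8B lies on the plus strand of chromosome 10 at 100463009 to 100483744 (GRCh38.p14), and the window is chr10:100462759-100463058, 250 bases before to 50 bases after the RefSeq start. WLS lies on the minus strand of chromosome 1 at 68098459 to 68232546, and the window is chr1:68232497-68232796, at the outer of the 2 starts that RefSeq lists. Both are written 5′ to 3′ on the strand of the gene, and capitals mark the core sequence recognised by TCF/LEF factors, searched as CTTTGA or CTTTGT on both strands.
WNT8B: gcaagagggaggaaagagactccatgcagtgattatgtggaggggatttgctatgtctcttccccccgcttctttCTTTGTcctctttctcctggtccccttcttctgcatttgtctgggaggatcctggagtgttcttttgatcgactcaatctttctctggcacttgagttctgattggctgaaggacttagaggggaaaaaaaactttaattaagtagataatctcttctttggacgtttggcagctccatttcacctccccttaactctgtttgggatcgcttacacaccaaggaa
WLS: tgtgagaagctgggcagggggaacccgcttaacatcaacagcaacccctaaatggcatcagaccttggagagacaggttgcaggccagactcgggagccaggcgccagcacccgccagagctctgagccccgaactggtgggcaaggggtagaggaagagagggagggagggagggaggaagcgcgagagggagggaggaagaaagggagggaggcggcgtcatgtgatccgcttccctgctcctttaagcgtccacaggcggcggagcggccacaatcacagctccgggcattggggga
The WNT8B window held 1 match, CTTTGT on the strand of the gene at bases -175 to -170 from the start, and the WLS window held 0. Of 35116 RefSeq promoter windows of 300 bases, 26.2% held at least 1 match, so the match is a description of these letters and not a binding site. The other ligand genes lie at 13816258 to 13880071 (WNT7A) and 55465715 to 55505263 (WNT5A) on chromosome 3, at 1617056 to 1647212 on chromosome 12 (WNT5B), at 45920366 to 45977162 on chromosome 22 (WNT7B), and at 228006998 to 228061271 (WNT3A) and 112466541 to 112530165 (WNT2B) on chromosome 1. PORCN lies at 48508992 to 48520814 on chromosome X and NOTUM at 81952507 to 81961187 on chromosome 17, all in GRCh38.p14 per RefSeq.

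The totals behind the FPKM values, read from the steps between low values, were 78488667 to 83629504 reads in the hairpin libraries, 46634855 reads in scramble replicate 1 and 77187298 reads in scramble replicate 2. The scramble libraries differed more from each other than either hairpin pair: the median replicate SD of log2(FPKM + 1) values was 0.0355 with shRNA1, 0.0452 with shRNA2 and 0.109 in scramble. RTN4, the host gene, stood at 34.2 and 34.7 FPKM with shRNA1, 31.2 and 31.3 FPKM with shRNA2, and 40.3 and 38.5 FPKM in scramble, a log2 difference of -0.26 ± 0.044 (SE) for the knockdown that did not pass (limma, Benjamini-Hochberg adjusted p = 0.135). Linear and circular RNA are mixed in the gene value, and depletion of the circle cannot be read from it. All 11 forebrain progenitor markers checked were detected, although EMX1 (0.0782 to 0.152 FPKM) and HOPX (0.0608 to 0.158 FPKM) were low in every library. Of the 11, 6 were lower in every knockdown library than in scramble, beside 8.7% of all genes (values are given with the other markers). The early neuron gene DCX was abundant, at 94.9 to 120.2 FPKM in the hairpin libraries and 111.6 to 117.8 FPKM in scramble.

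WNT8B was lower in all 4 knockdown libraries, and lowest with shRNA1. Its level was 1.53 and 1.53 FPKM with shRNA1, 2.77 and 2.83 FPKM with shRNA2, and 4.55 and 4.68 FPKM in scramble. The groups did not overlap, and shRNA2 lay between shRNA1 and scramble. The shRNA1 mean was 33.1% of the scramble mean and the shRNA2 mean 60.7%. These levels rest on 265.5 and 253.5 reads with shRNA1, 488.5 and 478 reads with shRNA2, and 448 and 763 reads in scramble, as recovered from the FPKM values, in which reads came in fractions. As log2(FPKM + 1), where the added 1 shrinks differences of low genes, WNT8B stood at -1.15 ± 0.053 with shRNA1 and -0.56 ± 0.053 with shRNA2 relative to scramble (SE, limma). The mean of both hairpins was at -0.86 ± 0.046. In bulk RNA, fewer cells of a type and less RNA per cell cannot be told apart.

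WLS, the carrier on which Wnt ligands depend for release, had the highest level of the 10 genes in every library. It reached 4.12 and 4.02 FPKM with shRNA1, 5.27 and 5.11 FPKM with shRNA2, and 8.37 and 9.31 FPKM in scramble. Again the 3 groups did not overlap, and both hairpin groups lay well below scramble. The shRNA1 mean was 46.0% and the shRNA2 mean 58.7% of the scramble mean, from between 1428 and 3254 reads per library. The log2 differences were -0.96 ± 0.065 with shRNA1 and -0.67 ± 0.065 with shRNA2 (SE, limma), and -0.81 ± 0.056 for both hairpins. Exons of WLS share 111 bases with the antisense gene GNG12-AS1, itself at 0.277 to 0.307 FPKM in the hairpin libraries and at 0.445 to 0.616 FPKM in scramble.

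WNT8B and WLS were the 2 of 4 tested genes of the set that passed an adjusted p under 0.05 in the knockdown comparison, which is how they came to head it. Over all 18162 genes tested, 15 passed, or 0.0826%, 14 of them lower (0.0771%) and 1 higher (0.00551%). Nothing is read from these shares, since this contrast chose the set. The selection itself depended on single libraries and settings, while the differences moved little. Without scramble replicate 1 the log2 differences were -0.87 for WNT8B and -0.88 for WLS and both still passed, and without scramble replicate 2 they were -0.84 and -0.74 and neither passed. With any 1 of the 4 hairpin libraries left out, the difference was -0.86 to -0.85 for WNT8B and -0.82 to -0.80 for WLS, and neither passed. Neither passed without the filter on low values or with the replicate block, where the differences were as given above.

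**Figure D1:**
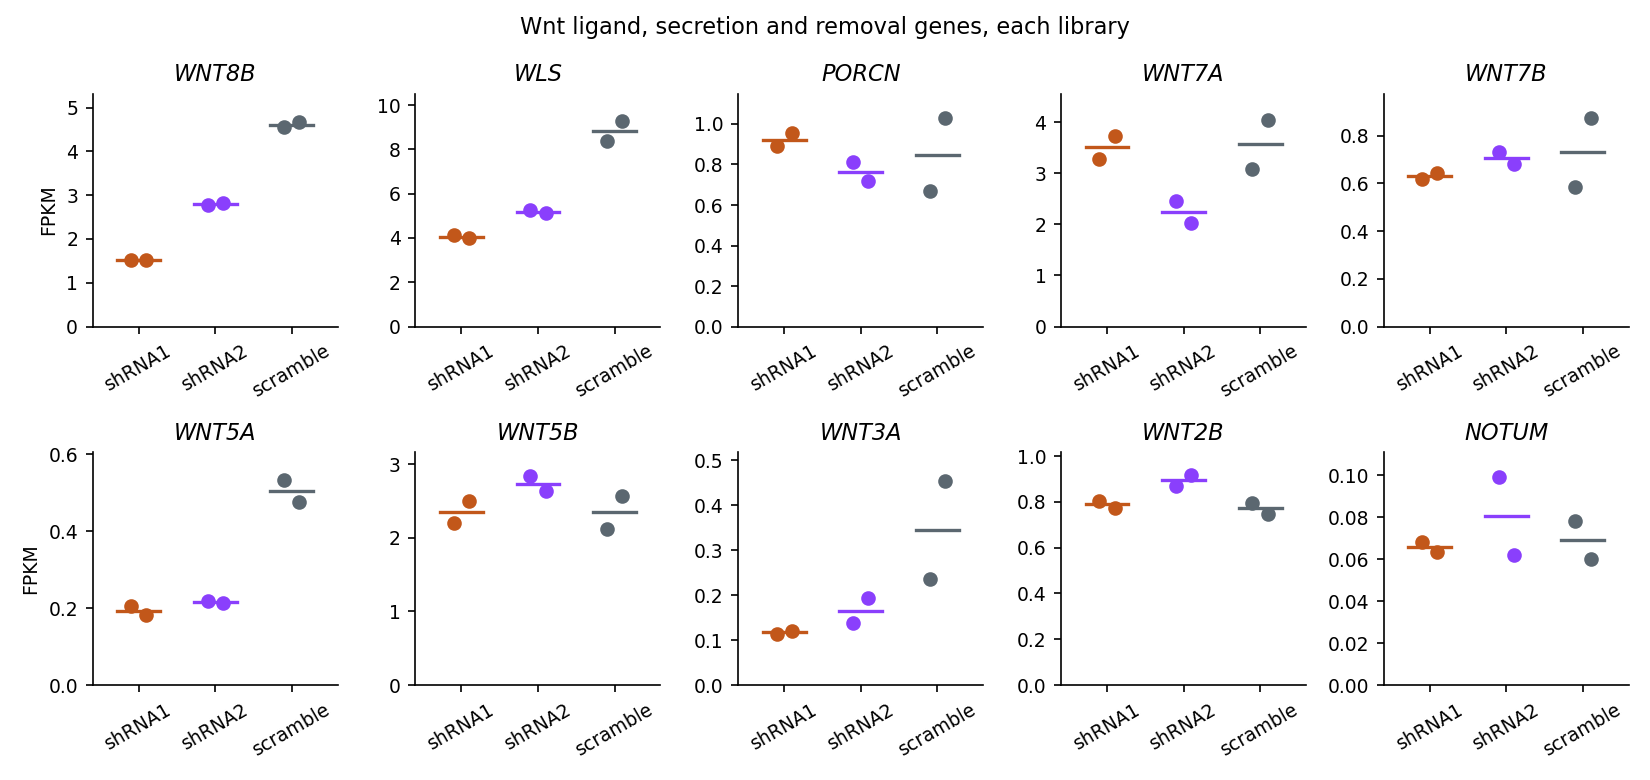
FPKM (vertical axes, linear, from 0) of each of the 10 genes in the 2 libraries of shRNA1, shRNA2 and scramble; points are libraries and bars are group means. The shRNA1 and shRNA2 points of WNT8B, WLS, WNT5A and WNT3A all sit below both scramble points, and for WNT8B and WLS shRNA2 sits between shRNA1 and scramble.

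WNT5A and WNT3A, both ligands of the hem in mouse, were low in every library and lower with each hairpin. WNT5A, which acts mostly through beta-catenin-independent signalling, was at 0.204 and 0.182 FPKM with shRNA1, 0.219 and 0.214 FPKM with shRNA2, and 0.533 and 0.476 FPKM in scramble. The shRNA1 mean was 38.3% and the shRNA2 mean 42.9% of the scramble mean, and the hairpin groups were close to each other. WNT3A, a ligand of the beta-catenin pathway, was at 0.114 and 0.120 FPKM with shRNA1, 0.138 and 0.193 FPKM with shRNA2, and 0.236 and 0.455 FPKM in scramble. The scramble libraries of WNT3A differed by more than the gap between shRNA2 replicate 2 and scramble replicate 1, and only 36 to 59 reads in the hairpin libraries and 42 and 134 reads in scramble stood behind these values. Both genes had a mean under 1 FPKM, the level below which genes were not tested. Their log2(FPKM + 1) differences for the knockdown, -0.32 for WNT5A and -0.23 for WNT3A, are held down by the added 1.

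WNT7A, a ligand of the cortical neuroepithelium, was lower with shRNA2 but not with shRNA1. Its level was 3.29 and 3.74 FPKM with shRNA1, 2.46 and 2.04 FPKM with shRNA2, and 3.09 and 4.05 FPKM in scramble. Both shRNA1 libraries lay within the scramble range, and both shRNA2 libraries below it. The log2 difference from scramble was -0.01 ± 0.129 with shRNA1 and -0.49 ± 0.129 with shRNA2 (SE, limma).

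The ligands WNT5B, WNT7B and WNT2B showed small differences. WNT5B, a close relative of WNT5A, was at 2.20 and 2.50 FPKM with shRNA1, 2.84 and 2.63 FPKM with shRNA2, and 2.12 and 2.57 FPKM in scramble. WNT7B, the closest relative of WNT7A, ranged from 0.618 to 0.730 FPKM over the hairpin libraries, inside its scramble range of 0.586 to 0.873 FPKM. WNT2B was at 0.802 and 0.775 FPKM with shRNA1, 0.870 and 0.917 FPKM with shRNA2, and 0.796 and 0.748 FPKM in scramble. The shRNA2 values of WNT5B and WNT2B lay above both other groups, at 116.6% and 115.8% of their scramble means. WNT2B shares 2661 exon bases with ST7L on the opposite strand, at 1.48 to 1.56 FPKM in the hairpin libraries and 1.59 to 1.67 FPKM in scramble, and its level is uncertain because the strand setting of the counting is not given in the sources used here.

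Neither of the enzymes that add and remove the Wnt lipid stood apart from scramble. PORCN was at 0.889 and 0.956 FPKM with shRNA1, 0.813 and 0.717 FPKM with shRNA2, and 0.668 and 1.03 FPKM in scramble. Both hairpin groups lay inside the scramble range, with shRNA2 below shRNA1. NOTUM, also a feedback target of Wnt signalling, was near the limit of detection, at 0.0621 to 0.0990 FPKM in the hairpin libraries and at 0.0601 and 0.0781 FPKM in scramble, from 11 to 25 reads per library. At this depth no difference in NOTUM was detectable.

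In all, 4 of 10 genes (WNT8B, WLS, WNT5A and WNT3A) were lower in every knockdown library than in either scramble library, 0 were higher and 6 overlapped. Of all 59151 genes, 8.7% were lower without overlap and 6.5% higher, and of the 18162 tested genes 12.6% and 5.87%. The 4 genes include the pair that chose the set, so nothing is read from this share. With shRNA1 alone the same 4 genes lay below scramble, beside 15.3% of all genes lower and 15.9% higher (18.9% and 15.8% of tested genes). With shRNA2 alone 5 genes lay below scramble, these 4 and WNT7A, and 2 above it, WNT5B and WNT2B, beside 21.1% of all genes lower and 15.8% higher (34.4% and 13.3% of tested genes). Of the 4 hem ligands named above from mouse, WNT8B, WNT5A and WNT3A were among the lower genes and WNT2B was not. Both hairpins share the scramble libraries, so their differences from scramble are set side by side and are not independent of each other.

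**Figure D2:**
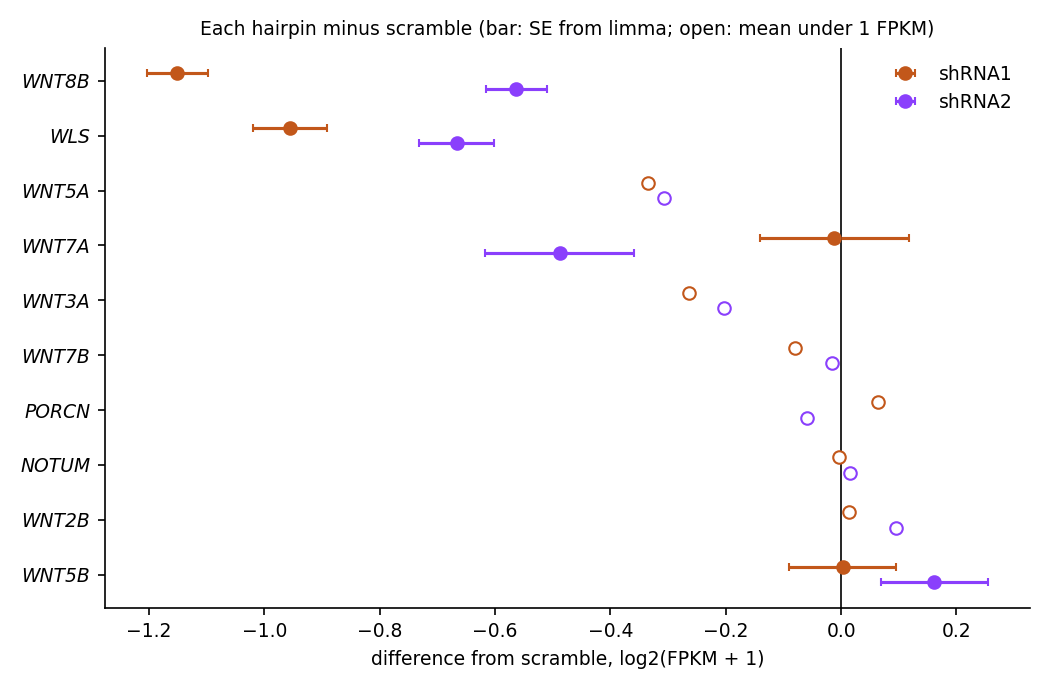
Difference from scramble on the log2(FPKM + 1) scale (horizontal axis) for shRNA1 and shRNA2, with genes ordered by the knockdown mean. Filled points carry the limma SE; open points are genes with a mean under 1 FPKM, given without an error. WNT8B stands at -1.15 with shRNA1 and -0.56 with shRNA2, WNT7A at -0.01 and -0.49.

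FPKM is scaled by gene length, so levels can be ordered between genes as far as that length matches the RNA present. The recovered lengths ran from 2112 bases for WNT8B to 12591 bases for WNT2B. The order, and the shares of ligand RNA below, rest on them, and which transcripts were present was not tested. In scramble the order was WLS (8.84 ± 0.662 FPKM), WNT8B (4.61 ± 0.0945 FPKM), WNT7A (3.57 ± 0.675 FPKM), WNT5B (2.35 ± 0.318 FPKM), PORCN (0.848 ± 0.255 FPKM), WNT2B (0.772 ± 0.0342 FPKM), WNT7B (0.730 ± 0.203 FPKM), WNT5A (0.505 ± 0.0407 FPKM), WNT3A (0.345 ± 0.155 FPKM) and NOTUM (0.0691 ± 0.0128 FPKM; SD, n = 2 each). The neighbours PORCN, WNT2B and WNT7B overlapped in their libraries, and the other neighbours did not, although WNT5A and WNT3A differed by little more than the SD of WNT3A. With shRNA1, WNT7A and WNT5B both stood above WNT8B. With shRNA2, WNT8B (2.80 ± 0.0468 FPKM) and WNT5B (2.74 ± 0.148 FPKM) overlapped, with WNT7A (2.25 ± 0.300 FPKM) below them.

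The make-up of Wnt ligand RNA differed accordingly. The 19 Wnt ligand genes summed to 11.02 and 11.84 FPKM with shRNA1, 12.2 and 11.4 FPKM with shRNA2, and 13.5 and 15.9 FPKM in scramble. WNT8B made up 13.4% of that sum with shRNA1, 23.7% with shRNA2 and 31.4% in scramble, ranking 3 of 19 with shRNA1 and 1 of 19 with shRNA2 and in scramble. Without WNT8B the sum was 9.49 and 10.3 FPKM with shRNA1, 9.39 and 8.59 FPKM with shRNA2, and 8.998 and 11.18 FPKM in scramble, so that the remaining ligands of the hairpin groups overlapped the scramble range. Of the 12 ligands outside the set, WNT4 alone had a mean of at least 1 FPKM, which it reached only through the hairpin libraries. WNT4 was at 1.17 and 1.22 FPKM with shRNA1, 1.08 and 1.03 FPKM with shRNA2, and 0.759 and 0.942 FPKM in scramble, a log2 difference of 0.20 that did not pass (limma, Benjamini-Hochberg adjusted p = 0.297). 7 of those 12 ligands were under 0.1 FPKM in every library.

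**Figure D3:**
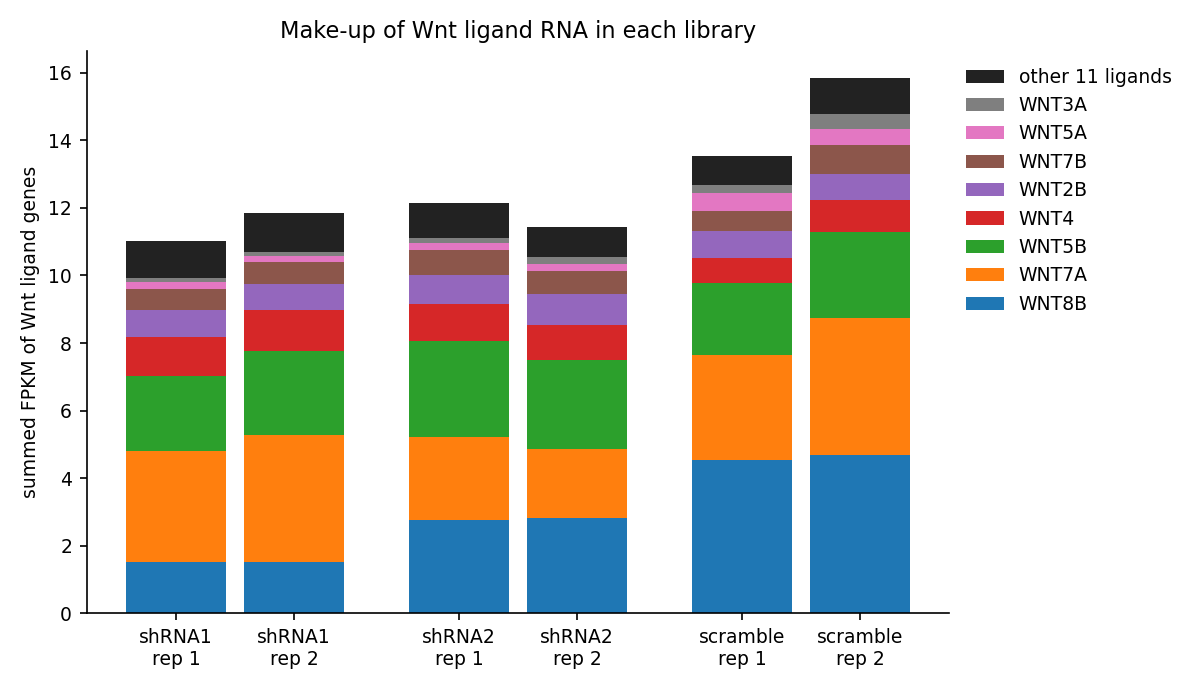
Summed FPKM of the 19 Wnt ligand genes (vertical axis, from 0) in each library, stacked by gene, with 11 low ligands pooled. WNT8B, at the bottom of each bar, is 1.53 FPKM in both shRNA1 libraries, 2.77 and 2.83 FPKM with shRNA2, and 4.55 and 4.68 FPKM in scramble.

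The estimate of the difference between the hairpins does not use the scramble levels, but its test is not free of the choice of genes. WNT8B and WLS were chosen by a small p in the same fit. Such a choice favours genes with a small spread, and the same spread enters here. The filter on mean level also used the scramble libraries. WNT8B was higher with shRNA2 than with shRNA1 by 0.59 ± 0.053 on the log2 scale (SE), with a shRNA2 mean of 183.2% of the shRNA1 mean. WLS differed by 0.29 ± 0.065, or 127.6%. Neither passed over all genes (limma, Benjamini-Hochberg adjusted p = 0.0976 for WNT8B and adjusted p = 0.177 for WLS), although in both genes the 2 shRNA2 libraries lay above the 2 shRNA1 libraries. WNT7A differed the other way, by -0.48 ± 0.129, with a shRNA2 mean of 64.0% of the shRNA1 mean (adjusted p = 0.216), and WNT5B by 0.16 ± 0.093 (adjusted p = 0.449), with the same fit. In this contrast 0 of 18162 genes (0%) passed with limma. An unadjusted p under 0.05 was found for 2929 genes, WNT8B, WLS and WNT7A among them.

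The result of that test rested on the scramble libraries, which entered through the shared spread and the filter on mean level. With the 4 hairpin libraries alone, an alternative added after the data were seen, 957 genes passed and the limma adjusted p was 0.0410 for WNT8B and 0.0448 for WLS, and 0.0659 for WNT7A, which did not pass. Among genes with a RefSeq protein, WNT8B passed (adjusted p = 0.0196) and WLS did not (adjusted p = 0.0731). Of the 18162 tested genes 16.6% were higher and 46.6% lower with shRNA2 than with shRNA1 without overlap. Of all 59151 genes these shares were 16.3% and 26.9%. Of the 10 genes, 7 were higher (WNT8B, WLS, WNT7B, WNT5A, WNT5B, WNT3A and WNT2B), 2 lower (PORCN and WNT7A) and NOTUM overlapped.

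The genes whose profiles over the 6 libraries lay nearest to WNT8B were GJA1, WLS, TPBG, SFRP2 and SULF1, at Euclidean distances of 0.307, 0.315, 0.487, 0.498 and 0.562 between centred log2(FPKM + 1) values, among 9761 genes with a RefSeq protein. GJA1 encodes a gap junction protein. TPBG encodes a membrane glycoprotein, SFRP2 a secreted Wnt-binding protein and SULF1 an extracellular heparan sulfatase. Nearest to WLS were SFRP2 (0.209), TPBG (0.252), WNT8B (0.315), GJA1 (0.362) and RSPO3 (0.421), a secreted R-spondin. GJA1 was at 3.86 and 3.86 FPKM with shRNA1, 5.40 and 5.59 FPKM with shRNA2, and 11.1 and 10.4 FPKM in scramble, the same order of groups as WNT8B. TPBG was at 1.94 and 2.01 FPKM with shRNA1, 2.50 and 2.36 FPKM with shRNA2, and 3.66 and 4.10 FPKM in scramble. With 6 libraries, such likeness describes these libraries only. WNT8B and WLS were both chosen as lower in the knockdown, which favours likeness between them, so nothing is read from their distance.

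Other steps of Wnt export showed no called gene. Of 13 genes for p24 cargo receptors, retromer, glypicans, lipid supply and Wnt proteases, 12 were tested. In the knockdown comparison 0 passed in either direction with limma, with a median log2 difference of -0.10, against -0.03 over all tested genes. At an unadjusted p under 0.05 there were 5 of the 12 (limma), beside 2498 of all 18162 tested genes. That background holds for the knockdown counts of the lists that follow as well. VPS35, the core of the retromer that recycles WLS from endosomes, was at 10.3 and 10.1 FPKM with shRNA1, 9.21 and 9.39 FPKM with shRNA2, and 9.96 and 9.59 FPKM in scramble. The smallest p values belonged to SCD, the desaturase that makes the fatty acid PORCN transfers (-0.27 ± 0.044, unadjusted p = 0.00144, adjusted p = 0.128), and to GPC3, a glypican (-0.45 ± 0.080, unadjusted p = 0.00215, adjusted p = 0.146).

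Of 16 Frizzled and co-receptor genes, 10 were tested and 0 passed (limma; 1 at an unadjusted p under 0.05), with a median of -0.06. FZD7 was at -0.22 and FZD5 at 0.12 (adjusted p = 0.331 and adjusted p = 0.382, limma with Benjamini-Hochberg adjustment). Of the 9 genes of the R-spondin axis, which shields Frizzled receptors from removal, 5 were tested and all 5 had negative differences. Of these, 1 passed, RSPO2, a gene of the hem in mouse. At an unadjusted p under 0.05 there were 4 of the 5 (limma), beside 2498 of all 18162 tested genes, and the median was -0.42. RSPO1, RSPO3 and the receptor gene LGR4 were also below scramble in every knockdown library, at -0.42, -0.72 and -0.26, and did not pass (limma, Benjamini-Hochberg adjusted p = 0.115, adjusted p = 0.0526 and adjusted p = 0.151). RSPO3 was under 1 FPKM in every hairpin library and was tested only because of its scramble level. With RSPO2 and LGR6, which was under 0.1 FPKM in every library, 5 of the 9 were lower without overlap, beside 8.7% of all genes. The other genes of the axis, RSPO4, LGR5, RNF43 and ZNRF3, overlapped scramble. RSPO2 was at 1.71 and 1.53 FPKM with shRNA1, 1.35 and 1.03 FPKM with shRNA2, and 5.79 and 6.17 FPKM in scramble, with a log2 difference of -1.54 ± 0.079 (limma, Benjamini-Hochberg adjusted p = 0.0208). Like those of WNT8B and WLS, this call was lost without scramble replicate 2 (adjusted p = 0.0672) and without any 1 hairpin library (adjusted p = 0.0605 to 0.203). Unlike WNT8B, its level with shRNA2 lay below that with shRNA1, and that difference did not pass either (-0.26 ± 0.091, adjusted p = 0.276).

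Secreted antagonists stood on both sides. Of 15 antagonists, 5 were tested and 0 passed (limma; 3 at an unadjusted p under 0.05). SFRP2 was at -0.84 ± 0.071 (adjusted p = 0.0526) and FRZB at 0.62 ± 0.073 (adjusted p = 0.0892, limma with Benjamini-Hochberg adjustment). FRZB was at 3.61 and 3.45 FPKM with shRNA1, 7.32 and 6.21 FPKM with shRNA2, and 2.78 and 2.92 FPKM in scramble. Of 13 intracellular transduction genes, all 13 were tested and 0 passed (limma, 2 at an unadjusted p under 0.05), with a median of -0.08. CTNNB1, which encodes beta-catenin, was at -0.08 (adjusted p = 0.558). BCL9 and DVL3 had the smallest p values there, at -0.18 and -0.19 (adjusted p = 0.282 and adjusted p = 0.304).

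Of 10 widely used beta-catenin target genes, 6 lay below scramble in every knockdown library, where 8.7% of all genes did, and TCF7, NKD2, SP5 and MYC overlapped. Of the 10, 4 were tested, 0 passed (limma; 3 at an unadjusted p under 0.05), and the median was -0.21. The 4 tested genes were among the 6, where 12.6% of all tested genes were lower without overlap and 5.87% higher. LEF1, a nuclear effector and target, was at 3.70 and 3.82 FPKM with shRNA1, 3.73 and 3.59 FPKM with shRNA2, and 4.75 and 4.94 FPKM in scramble (-0.31 ± 0.046, adjusted p = 0.115). AXIN2, a negative feedback scaffold, was at 3.41 and 3.29 FPKM with shRNA1, 3.45 and 3.25 FPKM with shRNA2, and 3.70 and 4.46 FPKM in scramble. CCND1, a cell cycle gene, stood at -0.20 ± 0.046 (adjusted p = 0.196, limma with Benjamini-Hochberg adjustment).

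Between shRNA2 and shRNA1, 0 genes of these lists passed with limma. At an unadjusted p under 0.05 there were 4 of 12 export genes, 1 of 10 receptors and 2 of 5 R-spondin axis genes (limma). Of the other lists there were 2 of 5 antagonists, 3 of 13 transduction genes and 0 of 4 targets. Over all 18162 tested genes, 2929 had an unadjusted p under 0.05 in this contrast, and nothing is read from the list counts. The genes with the smallest p in each list are given as values, with limma and Benjamini-Hochberg adjustment. Among export genes, SCD was at -0.28 (adjusted p = 0.140) and the retromer-linked sorting nexin SNX3 at -0.21 (adjusted p = 0.221). Among receptors, FZD5 was at 0.24 (adjusted p = 0.177) and FZD2 at 0.19 (adjusted p = 0.417), and the R-spondin gene RSPO1 was at 0.21 (adjusted p = 0.262). FRZB was at 0.77 (adjusted p = 0.0976) and DKK3, of the Dickkopf family, at -0.25 (adjusted p = 0.242). The transcription factor gene TCF7L2 was at 0.31 (adjusted p = 0.140) and the kinase gene GSK3B at -0.21 (adjusted p = 0.230). The beta-catenin targets LEF1 and CCND1 were at -0.03 and -0.02 (adjusted p = 0.792 and adjusted p = 0.894), where WNT8B was at 0.59. WNT4 was at -0.09 (adjusted p = 0.584).

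**Figure D4:**
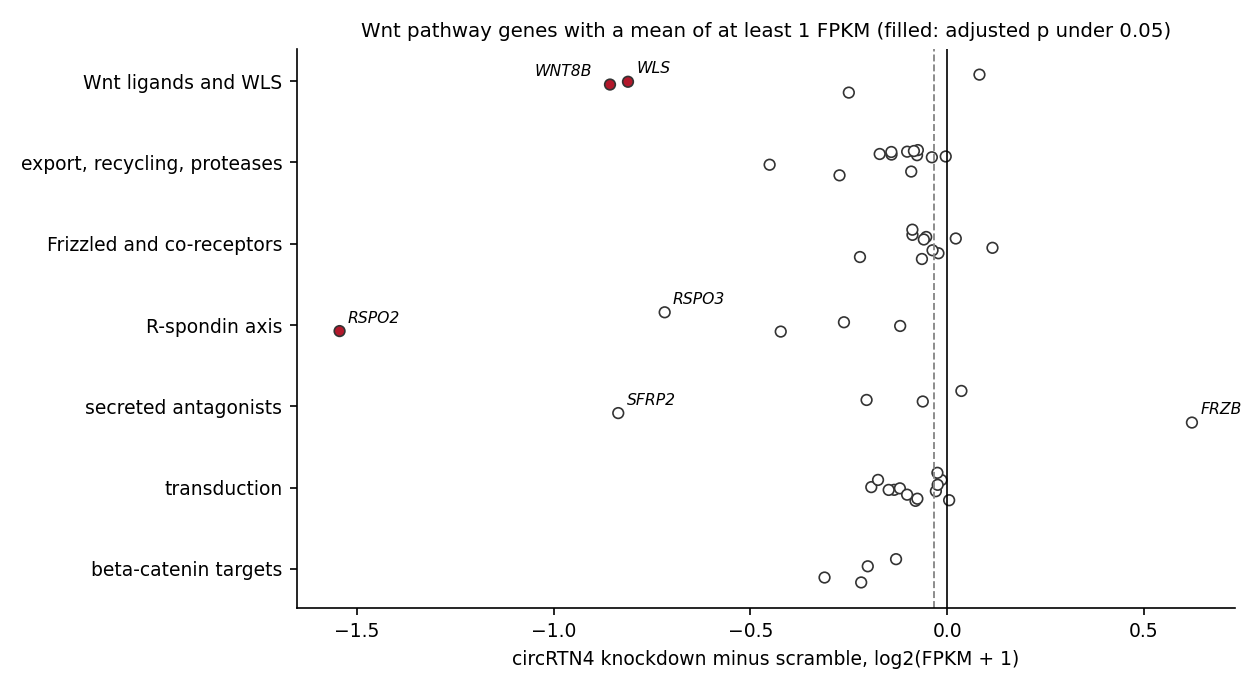
Knockdown minus scramble on the log2(FPKM + 1) scale (horizontal axis) for the tested genes of each Wnt list (rows); filled points passed an adjusted p under 0.05 and the dashed line is the median of all tested genes. WNT8B, WLS and RSPO2 are the filled points, and the beta-catenin targets cluster around their median of -0.21.

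Most hem and roof plate markers were lower in the knockdown libraries, and none of the 5 tested passed. The lower markers LMX1A, MSX1, MSX2, GDF7 and DMRT3 had a mean under 1 FPKM and were not tested. Of 12 hem and roof plate markers (Wnt and R-spondin genes left out), 9 were lower in every knockdown library than in scramble, 1 (ZIC1) was higher and 2 overlapped; 8.7% of all genes were lower and 6.5% higher. Of the 5 tested, 0 passed with limma and 5 had an unadjusted p under 0.05, 4 of them lower and ZIC1 higher. Over all 18162 tested genes, 2498 had an unadjusted p under 0.05 (limma). LMX1A, a roof plate and hem transcription factor, was at 0.398 and 0.408 FPKM with shRNA1, 0.419 and 0.453 FPKM with shRNA2, and 1.20 and 1.37 FPKM in scramble. MSX2 was at 0.394 and 0.341 FPKM with shRNA1, 0.491 and 0.476 FPKM with shRNA2, and 1.18 and 1.32 FPKM in scramble. For LMX1A the shRNA1 and shRNA2 means were 31.3% and 33.9% of scramble, a smaller gap between hairpins than for WNT8B. The summed level of the list, with ZIC1 its most abundant gene, was 27.8 to 28.4 FPKM with shRNA1, 32.7 to 34.7 FPKM with shRNA2 and 29.9 to 37.4 FPKM in scramble. ZIC1 itself was at 117.4% of scramble with shRNA1 and 163.4% with shRNA2. None of its markers was at 0 in every library.

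Of 9 choroid plexus markers, 4 were lower without overlap (TTR, CLIC6, FOLR1 and TRPM3) and 0 higher, beside 8.7% and 6.5% of all genes. TTR, a thyroid hormone carrier, was at 0.497 and 0.785 FPKM with shRNA1, 0.0577 and 0.0632 FPKM with shRNA2, and 6.03 and 6.63 FPKM in scramble. The sum of the 9 was 13.4 to 13.6 FPKM with shRNA1, 16.0 to 16.8 FPKM with shRNA2 and 20.7 to 21.7 FPKM in scramble. OTX2 made up most of that sum in the hairpin libraries, with means of 10.9 FPKM with shRNA1, 14.4 FPKM with shRNA2 and 11.5 FPKM in scramble, and TTR had the reverse hairpin order. KL was under 0.1 FPKM in every library. All 10 mesenchymal and meningeal markers were lower without overlap, beside 8.7% of all genes. They summed to 1.54 to 1.63 FPKM with shRNA1, 0.787 to 0.988 FPKM with shRNA2 and 6.28 to 6.95 FPKM in scramble. FOXD1 was under 0.1 FPKM throughout, and DCN, TWIST1 and FOXC1 were also low. FOXC1 was barely apart, at 0.0495 to 0.101 FPKM in the hairpin libraries and 0.158 and 0.102 FPKM in scramble. COL3A1 was the only marker of the 10 that was tested and the most abundant of them in scramble. It was at 15.2% of scramble with shRNA1 and 1.88% with shRNA2, the reverse of the hairpin order of WNT8B. Of 11 forebrain progenitor markers, 6 (PAX6, VIM, HES1, EMX1, EMX2 and OTX1) were lower and 0 higher without overlap, beside 8.7% and 6.5% of all genes. The 11 summed to 158.4 to 159.3 FPKM with shRNA1, 165.3 to 169.6 FPKM with shRNA2 and 171.6 to 187.7 FPKM in scramble. TTR and COL3A1 were the 2 markers of these 4 lists that passed in the knockdown comparison with limma. Both were under 1 FPKM in every hairpin library and reached the filter on mean level only through scramble. Nothing is read from these 2 calls. The part of these cell types in the lower WNT8B and WLS was not tested.

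**Figure D5:**
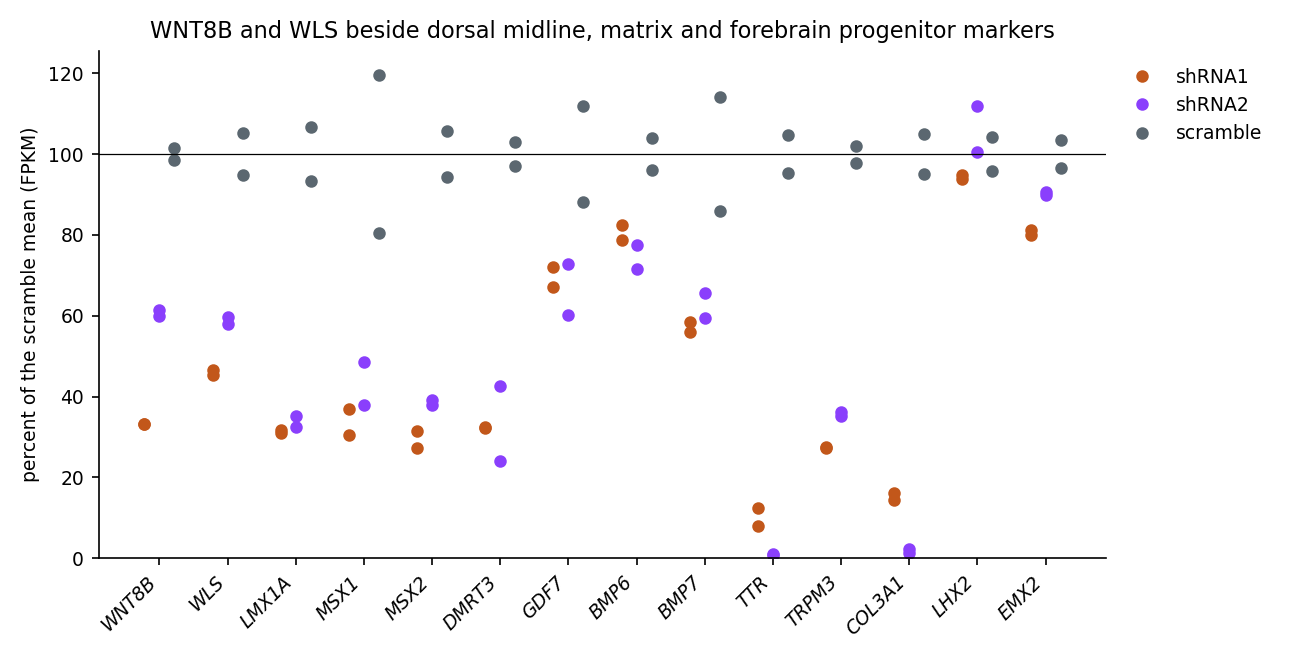
FPKM as a percent of the scramble mean (vertical axis, from 0) for WNT8B and WLS beside markers chosen from the lists after their values were seen; points are libraries. LMX1A, MSX1, MSX2 and DMRT3 lie below 50% with both hairpins. The hem and choroid plexus markers shown were all lower without overlap and do not stand for their lists. Of the hem list, ZIC1, not shown, has means of 117.4% with shRNA1 and 163.4% with shRNA2, and LMX1B and BMP4 overlapped scramble. Of the choroid plexus list, OTX2, KCNJ13, AQP1, PRLR and KL, not shown, overlapped scramble. The progenitor markers EMX2 and LHX2 have means of 80.6% and 94.3% with shRNA1 and 90.2% and 106.2% with shRNA2. They do not stand for their list, where 6 of 11 were lower in every knockdown library and 0 higher, beside 8.7% and 6.5% of all genes. OTX1 and PAX6, not shown, have means of 58.3% and 75.7% with shRNA1 and 62.8% and 68.9% with shRNA2.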

How the data were processed

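Gene expression was measured by ribosomal RNA-depleted RNA sequencing of 6 libraries. The authors deposited 1 FPKM value per gene and library, per the file headers. The submitters' processing notes name featureCounts 2.0.1, SAMtools 1.9, HISAT2 2.1.0 and Trimmomatic 0.39, and the build GRCh38 (hg38). The sources used here give neither the annotation, nor the strand setting, nor how multiply mapped reads were counted. Library totals were recovered from FPKM steps with exon lengths of GENCODE v29. The reads of the 10 genes came from the length that turned all 6 values into multiples of 0.01 reads (tolerance 0.0003 reads or, where larger, the rounding of the deposited values). For NOTUM 5 lengths fitted, and its reads rest on the length nearest to that of GENCODE v29. Recovered reads show counting error only.

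limma 3.58.1 (R 4.3.3) was fitted to log2(FPKM + 1) of the 18162 genes whose mean reached 1 FPKM, all 3 groups in 1 fit with a mean-variance trend. The fit was run on simulated data with 1 spread per gene for all groups. Such data cannot check the fit under the wider spread of the scramble libraries. Benjamini-Hochberg adjustment ran over all tested genes, and a gene passed at an adjusted p under 0.05. Contrasts were the mean of both hairpins minus scramble, each hairpin minus scramble, and shRNA2 minus shRNA1. Members, lists and tests were chosen with earlier results of these data known. Of each Wnt list, genes that passed (at most 4) or else the 2 with the smallest p were named in each contrast. The protein stretches in the planned rule are not given, and 1 gene of each of 2 marker lists is not reported here and was left out of its list's counts and sums. VPS35, AXIN2, CTNNB1, COL3A1 and the markers shown were chosen after their values were seen. Alternatives changed the pseudocount, the filter, the scaling, the genes tested, the replicate block and the libraries. Between replicates, the median chi-square of the recovered reads over 4139 genes was 2.01 times its sampling expectation with shRNA1, 2.79 times with shRNA2 and 9.25 times in scramble, so no pair was counted as 1 library. Promoters and positions are from RefSeq (GRCh38.p14). Figures used Python 3.11.15 with pandas 2.3.3, numpy 2.4.6 and matplotlib 3.10.9.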

Additional observations from a re-analysis of the deposited data

How the results depend on the processing

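In the knockdown comparison 15 genes passed, WNT8B and WLS among them. The counts of all genes and of genes of the set were 0 and 0 without a filter on low values, 35 and 1 among genes whose mean reached 5 FPKM (where WNT8B is not tested), 28 (10 higher, 18 lower) and 2 with median of ratios scaling, 30 (12 higher, 18 lower) and 2 with quantile normalization, 134 and 2 among genes with a RefSeq protein, and 1 and 0 with the replicate block. Leaving out 1 library gave 0 to 507 genes and 0 to 2 of the set; 507 came without scramble replicate 1 and 1 without scramble replicate 2, and the cause was not tested. The log2 difference of WNT8B ranged from -1.12 to -0.82 over 13 alternatives and that of WLS from -0.93 to -0.74 over 14. The counts of the set are those of the contrast that chose it and test nothing. RSPO2 ranged from -2.03 to -1.49 and passed in 6 of 13 (limma adjusted p = 0.00115 to 0.203).

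Between the hairpins 0 genes and 0 of the set passed, against 46 and 0 among genes whose mean reached 5 FPKM, 269 and 1 among genes with a RefSeq protein, 0 to 1029 and 0 to 2 with 1 library left out, and 957 and 2 with the hairpin libraries only, added after the data were seen. Without scramble replicate 1 the count was 978 and without scramble replicate 2 it was 1029. WNT8B ranged from 0.58 to 0.83 and WLS from 0.27 to 0.36 with limma, and passed in 4 of 14 (adjusted p = 0.0196 to 0.715) and 3 of 15 alternatives (adjusted p = 0.0432 to 0.754).

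Replicate numbers do not pair the libraries: the correlations of replicate 1 minus replicate 2 between groups were 0.0122, -0.00768 and -0.15. The replicate block left 0 genes passing between the hairpins. No result changed sign past the threshold. Depth limits NOTUM (11 to 25 reads) and WNT3A (36 to 134 reads), and genes with a mean under 1 FPKM were not tested.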

Other observations

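Further marker lists show what else the cultures held, as values without a test. Ventral forebrain markers summed to 75.9 to 77.9 FPKM with shRNA1, 68.5 to 73.1 FPKM with shRNA2 and 72.4 to 85.4 FPKM in scramble, so ranges overlapped for both hairpins. Neuron markers summed to 354.9 to 359.2 FPKM with shRNA1, 306.7 to 307.4 FPKM with shRNA2 and 337.8 to 344.9 FPKM in scramble. Cajal-Retzius markers, of a neuron type that arises in part from the hem, summed to 12.0 to 12.1 FPKM with shRNA1, 8.30 to 8.57 FPKM with shRNA2 and 11.2 to 11.3 FPKM in scramble. RELN made up most of that sum, with means of 9.34 FPKM with shRNA1, 5.91 FPKM with shRNA2 and 8.05 FPKM in scramble. Of the 6 Cajal-Retzius markers, TP73, EBF3 and CALB2 were lower in every knockdown library than in scramble, LHX1 was higher, and RELN and LHX5 overlapped, beside 8.7% of all genes lower and 6.5% higher.

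Neural crest markers summed to 0.782 to 0.972 FPKM in the hairpin libraries and 0.868 to 0.896 FPKM in scramble. Midbrain and hindbrain markers summed to 0.263 to 0.436 FPKM in the hairpin libraries and 0.545 to 0.616 FPKM in scramble, with 6 of 8 under 0.1 FPKM in every library. Of 6 pluripotency markers, 5 were higher in every knockdown library than in scramble, beside 6.5% of all genes, with sums of 8.85 to 8.87 FPKM with shRNA1, 16.2 FPKM in both shRNA2 libraries and 7.61 to 7.74 FPKM in scramble; POU5F1 and NANOG were under 0.1 FPKM in every library.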
